A study of Mus musculus with 12 samples.

Results

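Wild-type (WT) mouse embryonic fibroblasts of the C57BL/6 strain were compared after 24 hours of hypoxia and in normoxia, with 3 RNA sequencing libraries on each side. These 6 libraries were taken by their titles from a series of 12. The other 6 come from cells labelled TAZKo, a name that refers to tafazzin, a mitochondrial enzyme of cardiolipin remodelling, and they entered only the estimate of spread and 1 comparison given near the end. The WT cells carried no engineered allele according to the labels and were grown in DMEM with 10% fetal bovine serum. Hypoxia was applied in a hypoxia workstation, and the labels state no oxygen level. No label says whether the 3 samples of a group were separate cultures, so the p-values below measure the spread between these samples, which may be technical.

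Cells sense oxygen through prolyl hydroxylases that mark the alpha subunits of the hypoxia-inducible factors (HIF) for destruction by the VHL ubiquitin ligase. When oxygen is short the hydroxylases slow down, the alpha subunits accumulate, pair with ARNT and switch on genes that carry the short DNA words ACGTG or GCGTG, the core of the hypoxia response element. In fibroblasts this programme is known for raising glucose use, lowering the use of mitochondria, and changing the proteins that are secreted and crosslinked into the matrix. Low oxygen also meets pathways that do not need HIF, among them the integrated stress response run by the transcription factor ATF4 and the oxygen-consuming steps of sterol synthesis.

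The 6 libraries held 21039451 to 28586600 counts. Expression is given in CPM, a gene's count relative to the library's total after scaling by the trimmed mean of M values, and 3 counts in a library were worth 0.109 to 0.15 CPM. A value written with ± after a log2 change is the standard error of that change, from 3 samples per group, and adjusted p-values come from edgeR's quasi-likelihood test over 14408 genes. Hypoxia separated the libraries on the first principal component, which held 74.1% of their variance. Normoxia sample 1 stood apart from normoxia samples 2 and 3 on the second component (31.9 against -18.3 and -18.5), and 0.921% of its counts were mitochondrial, against 1.58% and 1.66%. Hypoxia sample 1 lay at 16.3 on that component, against -6.8 and -4.5. Counts of genes are therefore given with and without these libraries. The lanes named with the deposited tables put normoxia samples 1 and 2 and hypoxia sample 1 in lane 4, and normoxia sample 3 and hypoxia samples 2 and 3 in lane 5. Of 14 fibroblast markers 11 were measurable, with Col1a1 at a mean of 2835 CPM, Fn1 at 5697 CPM, Vim at 1280 CPM and Pdgfra at 165 CPM in normoxia, whereas Thy1, Lum and Fap were under the filter on low counts in every group. Among 27 markers of other cell types, 16 were under that filter, including Epcam, Cdh1, Cdh5 and Ptprc, and Krt18 was the highest at 132 CPM. Genes known from mesothelium, looked up after their values had been seen, were abundant in normoxia: 1024 CPM for Upk3b, 278 CPM for Wt1, 140.3 CPM for Msln and 295 CPM for Gpm6a. In bulk RNA, fewer cells of a type and less RNA per cell cannot be told apart.

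After 24 hours of hypoxia 7355 genes differed at an adjusted p under 0.05, 51.0% of those tested, with 3750 higher (26.0%) and 3605 lower (25.0%). The rises were the larger changes. At least 2-fold higher were 1174 genes (8.15%) and at least 2-fold lower were 436 (3.03%), and past 8-fold there were 119 against 20. All hypoxia samples lay above all normoxia samples for 4049 tested genes (28.1%) and below them for 3811 (26.5%). With a mean of at least 5 CPM required, 499 were at least 2-fold higher and 183 lower, and with no filter 666 were at least 2-fold lower. The median log2 change was 0.64 among genes called higher, -0.47 among genes called lower and 0.009 over all genes tested. Without normoxia sample 1 there were 3863 higher and 3758 lower genes, and without hypoxia sample 1 there were 3664 and 3582. Of the 7355 genes, 7341 moved the same way within lane 4 alone and 7354 within lane 5 alone. Lane 4 left 1 hypoxia sample and lane 5 left 1 normoxia sample. Both lanes are parts of the libraries that gave these calls, so the shared direction is not independent support. With library size alone as the scale the split was 2966 higher to 4817 lower, with the median of all genes at -0.097. Processed pseudogenes, copies that can take reads from their parent gene, were called higher in 136 and lower in 19 of 479 cases.

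**Figure D1:**
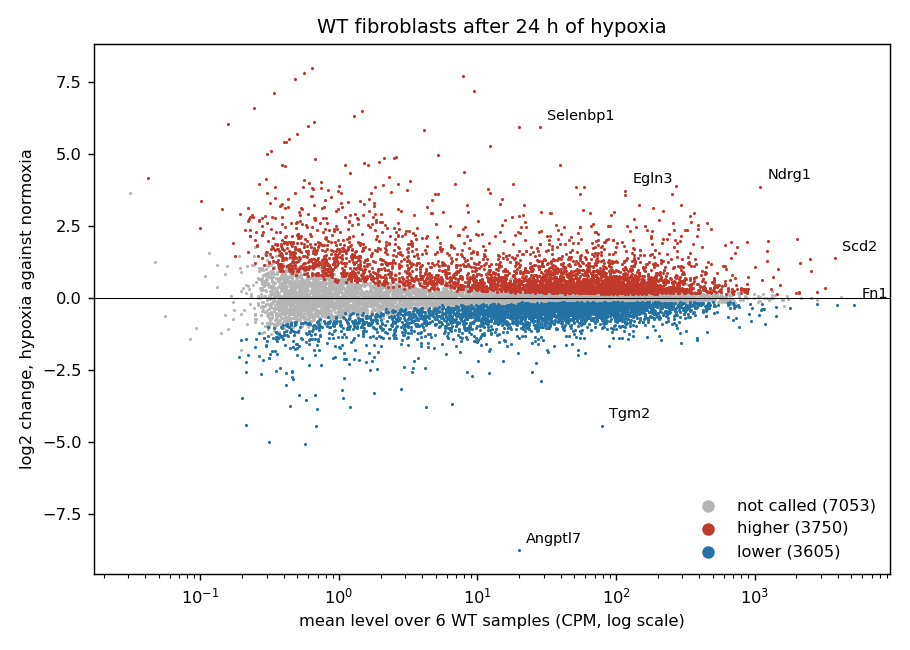
Log2 change in WT cells between 24 hours of hypoxia and normoxia (y axis) against the mean level over the 6 WT samples in CPM (x axis, log scale), 1 point for each of 14408 tested genes. The 3750 genes called higher and the 3605 called lower are coloured, and named genes mark how far the rises (Selenbp1, Egln3, Ndrg1) and the falls (Angptl7, Tgm2) reached.

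The genes that rose most among those with a mean of at least 10 CPM in either condition were, for the most part, close to absent in normoxia. Gpr35, a G protein-coupled receptor, had 2, 1 and 2 counts in the normoxia samples and 259, 331 and 522 in the hypoxia samples, which is at least 125-fold higher against a floor of 3 counts per library. 2610528A11Rik, which encodes a small secreted ligand of the receptor Gpr15, stood at 0.088, 0.088 and 0.18 CPM in the normoxia samples and 16.4, 18.8 and 20.8 CPM in the hypoxia samples (log2 change 7.19 ± 0.22, edgeR adjusted p = 1.82e-11). Its normoxia mean of 0.119 CPM was under that floor (0.123 CPM), so the size of its rise is uncertain. Mettl7b, a membrane-bound methyltransferase, went from 0.57, 0.66 and 0.65 CPM to 37.7, 36.2 and 44.0 CPM (log2 change 5.96 ± 0.14, edgeR adjusted p = 2.02e-12). For all 3 genes every hypoxia sample lay far above every normoxia sample. The rule that named the 12 largest rises and falls allowed no overlap between samples, so this separation is not further support. Selenbp1, which encodes a methanethiol oxidase, rose by 5.94 ± 0.14 on the log2 scale, although 52.3% of the 50-base words of its transcript also occur in other genes, so its share of reads is uncertain. Acap1 (a regulator of Arf GTPases, 5.28 ± 0.18), Ciart (a repressor of the circadian clock, 4.62 ± 0.13), Sprr1a (a small proline-rich protein, 4.37 ± 0.18), Ankrd37 (an ankyrin repeat protein known as a HIF target, with exons that partly overlap a gene on the other strand, 3.97 ± 0.12) and Kbtbd11 (3.97 ± 0.16) followed. The last 3 of the 12 largest rises were of genes already expressed in normoxia: Car12, a carbonic anhydrase of the cell surface, Ndrg1, a growth regulator induced by stress, and Bnip3, a mitophagy receptor, changed by 3.89 ± 0.07, 3.87 ± 0.07 and 3.87 ± 0.08.

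Genes with under 3 counts in every normoxia sample and a mean of at least 1 CPM in hypoxia numbered 8. Beside Gpr35 the highest were Grin1, a subunit of the NMDA receptor whose exons partly overlap a gene on the other strand (so that its reads are uncertain), at least 23.3-fold higher, Fam163a, at least 20.6-fold, and Prss46, a serine protease, at least 10.5-fold. The other 4, named after their values were seen, were B3gnt3, Il10, Adm and Aire. The reverse pattern was met by 1 gene, Ush1g, a scaffold protein of sensory hair cells, with 23, 22 and 38 counts in normoxia and 0, 1 and 1 in hypoxia, at least 8.53-fold lower.

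The 12 largest falls included several secreted and matrix proteins. Angptl7, a secreted angiopoietin-like protein, stood at 42.0, 32.8 and 44.0 CPM in normoxia and had 0, 4 and 2 counts in hypoxia samples 1 to 3. Tgm2, the tissue transglutaminase that crosslinks matrix proteins, fell from 164, 128 and 161 CPM to 11.4, 4.76 and 5.20 CPM (log2 change -4.44 ± 0.23, edgeR adjusted p = 4.03e-09). All 3 hypoxia samples of Tgm2 lay far below all 3 normoxia samples, and the naming rule had required that they not overlap. Ogn (osteoglycin, a small matrix proteoglycan, -2.72 ± 0.27), Rspo1 (an enhancer of Wnt signalling, -2.18 ± 0.15) and Cxcl14 (a chemokine, -1.98 ± 0.12) also fell. Others among them were Fmnl1, a formin that builds actin filaments (-3.70 ± 0.19), the kinases Stk26 (-2.63 ± 0.21) and Wnk4 (-2.18 ± 0.12), the protease Prss12 (-2.56 ± 0.15), the glutathione transferase Gsta3 (-2.56 ± 0.17) and the integrin adaptor Parvb (-2.25 ± 0.12). Measured in CPM, the largest gains were of Scd2 (a fatty acid desaturase), Ldha and Pkm (glycolysis), Ndrg1, Vim and P4hb, and the largest losses of Fn1, Col6a1, Hsp90ab1, Serpinh1, Myrf and Upk3b. Scd2 gained most, from 1892, 2194 and 2216 CPM to 5417, 5528 and 5595 CPM, and Fn1, the matrix protein fibronectin, lost most, from 5973, 5313 and 5806 CPM to 5176, 4521 and 4719 CPM (log2 change -0.25 ± 0.07, edgeR adjusted p = 0.0077).

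The gene lists here and below were chosen with earlier results of these data known, so their shares are descriptions only. Of 13 tested genes for HIF subunits and oxygen sensors, 9 rose and 2 fell (69.2% and 15.4%, against 26.0% and 25.0% of all genes). Their median log2 change was 0.63. Of the 4 sensor hydroxylases 2 rose and 1 fell. Egln3, which encodes the prolyl hydroxylase PHD3 (chromosome 12, bases 54178981 to 54203860 of GRCm38), went from 16.9, 15.4 and 16.4 CPM in the normoxia samples to 236, 203 and 209 CPM in the hypoxia samples. Egln1, which encodes PHD2, went from 85.2, 83.2 and 83.1 CPM to 628, 598 and 584 CPM (log2 change 2.85 ± 0.06, edgeR adjusted p = 1.01e-12). Neither gene had overlapping samples, as was so for 28.1% of all tested genes with hypoxia higher. Egln2, the third prolyl hydroxylase, changed by -0.18 ± 0.08 and missed the threshold (edgeR adjusted p = 0.0972). Vhl rose by 1.32 ± 0.07, Siah2, a ubiquitin ligase that removes PHD proteins, by 1.54 ± 0.07, and Cited2, which competes with HIF for its coactivator, by 1.08 ± 0.11. Among the factor's own subunits the changes were small: Hif1a rose by 0.63 ± 0.14, Epas1 by 0.30 ± 0.09 and Arnt2 by 0.36 ± 0.09, while Arnt fell (-0.20 ± 0.06), as did Hif1an, the asparaginyl hydroxylase that limits HIF activity (-0.18 ± 0.06). Some of these calls depended on single libraries. Epas1 was not called without hypoxia sample 3 (edgeR adjusted p = 0.0621), Arnt without hypoxia sample 2 (0.0612) and Hif1an without hypoxia sample 2 or 3 (0.0659 and 0.0657), while Egln2 was called lower without normoxia sample 3 (0.00889).

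Of 29 genes for glucose uptake and glycolysis 22 rose (75.9%, against 26.0% of all genes) and 2 fell, with a median log2 change of 1.35. Their share of all counts went from 0.642% ± 0.0651 to 1.82% ± 0.0839 (SD, n = 3). Of the genes for the upper steps, from glucose to triose phosphates, 7 of 8 rose, and of those for the lower steps 7 of 7. Pfkp, a phosphofructokinase, went from 126, 112 and 108 CPM to 700.4, 648 and 662 CPM (log2 change 2.54 ± 0.07, edgeR adjusted p = 5.1e-12), whereas its muscle paralog Pfkm changed by -0.06 ± 0.08 and missed the threshold (edgeR adjusted p = 0.569). Hk2 and Hk1, the hexokinases that trap glucose in the cell, rose by 2.49 ± 0.08 and 2.02 ± 0.08, and Aldoc, an aldolase, by 2.48 ± 0.10. Paralogs also moved apart around pyruvate. Pdk1, the kinase that shuts the pyruvate dehydrogenase complex, rose from 90.5, 99.5 and 96.3 CPM to 586, 624 and 587 CPM, and Pdk2 fell from 25.5, 21.4 and 21.3 CPM to 11.9, 9.78 and 8.77 CPM (log2 change -1.17 ± 0.11, edgeR adjusted p = 9.15e-07). Ldha, which turns pyruvate into lactate, rose by 2.04 ± 0.09, and Ldhb, which encodes the other subunit of lactate dehydrogenase, fell (-0.88 ± 0.25) at a level of 1.94 CPM in normoxia. Of the 4 Pfkfb genes, which make the activator of phosphofructokinase, 2 rose, Pfkfb3 among them (0.57 ± 0.06). Several of these transcripts share sequence with other genes, among them Eno1 (72.2% of its 50-base words), Pgk1 (68%), Pgam1 (41.5%), Pkm (34.4%) and Gapdh (27.2%), so their absolute levels are uncertain.

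**Figure D2:**
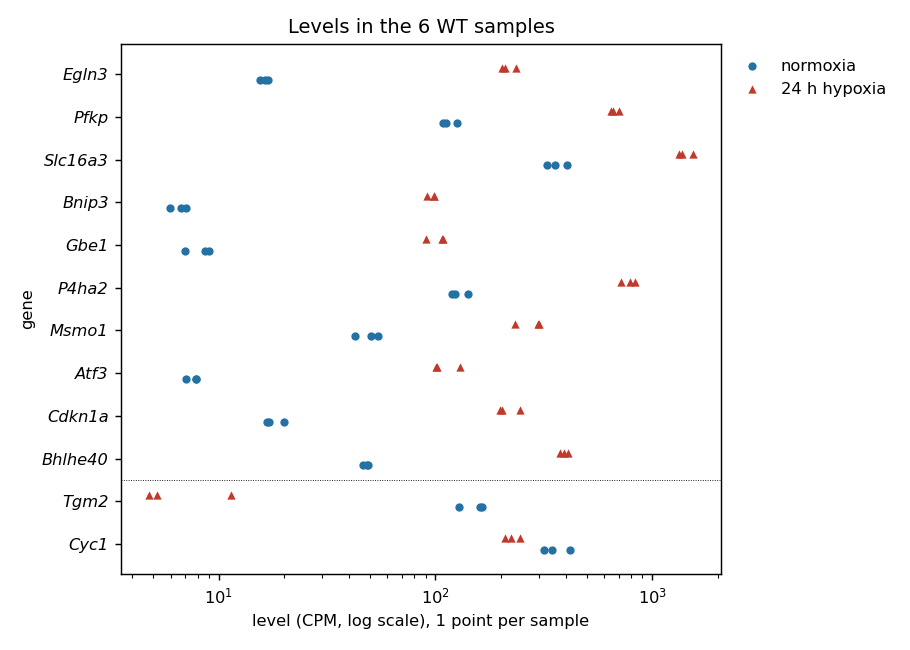
Level in CPM (x axis, log scale) of 12 genes in the 3 normoxia and the 3 hypoxia WT samples, 1 point per sample. For each of the 10 genes drawn in the upper block all 3 hypoxia samples lie above all 3 normoxia samples, and for Tgm2 and Cyc1 all 3 lie below. Bnip3 and Tgm2 were named by a rule that required such a separation. Of all tested genes 28.1% were separated with hypoxia higher and 26.5% with hypoxia lower.

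Lactate and protons leave the cell through transporters of the membrane. Slc16a3, the lactate exporter MCT4, went from 406, 355 and 328 CPM to 1548, 1326 and 1374 CPM, and Bsg, the chaperone that carries it to the membrane, from 538, 476 and 508 CPM to 2111, 1868 and 1992 CPM (log2 change 1.97 ± 0.06, edgeR adjusted p = 3.38e-11). Slc16a1, which encodes MCT1, changed by 0.21 ± 0.09 with an edgeR adjusted p of 0.0737. It was called higher without normoxia sample 2 (edgeR adjusted p = 0.0389) and with the replicate number as a block. Over 20 tested genes for acid export and carbonic anhydrases, 8 rose and 3 fell (40.0% and 15%, against 26.0% and 25.0% of all genes). Beside Car12 the largest fitted rise was of Car6, a secreted carbonic anhydrase (4.69 ± 0.34, from 0.11 CPM). That level is under 3 counts per library (0.123 CPM in normoxia), so the size of the rise is uncertain. Car14 (-1.02 ± 0.30) and Slc4a3 (-0.63 ± 0.10) were among those that fell. Car14 was not called without hypoxia sample 2 (edgeR adjusted p = 0.0544). Glycogen genes also changed. Of 18 tested 11 rose and 3 fell (61.1% and 16.7%), led by Gbe1, the branching enzyme, which went from 6.99, 9.04 and 8.62 CPM to 90.8, 108 and 108 CPM (log2 change 3.63 ± 0.10, edgeR adjusted p = 8.99e-12). Epm2a, the glycogen phosphatase laforin, rose by 3.42 ± 0.16. Gys1, glycogen synthase, rose by 2.15 ± 0.06 and Pgm1, which feeds it, by 2.37 ± 0.06. The liver phosphorylase gene Pygl rose by 2.97 ± 0.18 from a mean of 1.05 CPM, while Pygb, the brain form, fell from 153, 133 and 140.4 CPM to 91.8, 81.1 and 81.3 CPM, and Gaa, the lysosomal enzyme of glycogen breakdown, fell by 0.44 on the log2 scale.

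The words ACGTG and GCGTG, searched on both strands, were looked for in RefSeq promoter windows of GRCm38.p6 that run from 250 bases before to 50 bases after a start. They are shown here for 6 genes that rose, because these stretches hold at least 2 copies. Each line gives 100 of the 250 bases before the start, 5′ to 3′ on the gene's strand and outside annotated exons, with the matches in capitals.
Bnip3: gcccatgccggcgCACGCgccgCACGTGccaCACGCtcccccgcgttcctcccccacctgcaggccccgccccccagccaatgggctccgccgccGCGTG
P4ha2: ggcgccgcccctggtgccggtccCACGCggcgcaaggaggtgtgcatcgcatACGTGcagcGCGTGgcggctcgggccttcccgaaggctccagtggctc
Pfkp: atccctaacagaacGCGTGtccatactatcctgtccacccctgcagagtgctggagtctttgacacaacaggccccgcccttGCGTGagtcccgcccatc
Ldha: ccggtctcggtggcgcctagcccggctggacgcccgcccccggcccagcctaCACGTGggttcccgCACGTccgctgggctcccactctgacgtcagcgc
Lonp1: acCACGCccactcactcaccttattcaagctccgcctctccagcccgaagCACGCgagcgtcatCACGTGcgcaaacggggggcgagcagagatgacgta
Ankrd37: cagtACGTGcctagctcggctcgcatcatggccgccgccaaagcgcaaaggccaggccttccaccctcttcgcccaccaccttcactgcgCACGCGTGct
The stretches lie at chr7:138909537-138909636 (Bnip3, minus strand), chr11:54100794-54100893 (P4ha2, plus strand), chr13:6648822-6648921 (Pfkp, minus strand), chr7:46845704-46845803 (Ldha, plus strand), chr17:56626904-56627003 (Lonp1, minus strand) and chr8:45999996-46000095 (Ankrd37, minus strand). They span bases 130 to 31 before the start for Bnip3 and P4ha2, 150 to 51 for Pfkp, 100 to 1 for Ldha and Lonp1 and 245 to 146 for Ankrd37. Such short words are common. They were in 61.3% of 13344 windows of all tested genes, 63.3% of 3626 windows of genes called higher and 61.3% of 3540 windows of genes called lower. Among genes at least 2-fold higher the share was 54.3% of 987 windows, and their median GC content was 58.0% against 60.7% over all. ACGTG alone was in 30.0% of windows of genes called higher (95% Wilson interval 28.5% to 31.5%), 23.4% of those called lower (22% to 24.8%) and 25.2% of all (24.5% to 26.0%). In windows of the glycolysis list it was in 21 of 47, in those of the HIF subunit and sensor list in 6 of 12 and in those of the circadian clock list in 11 of 21. Such shares were taken for all 38 gene lists, and only these are given here. ACGTG is also part of the word CACGTG, so a match does not tell them apart. Windows of genes at least 2-fold higher held a mean of 1.15 copies of ACGTG or GCGTG, against 1.23 over all tested genes. Windows of 1 gene overlap and are not independent, and a match is not a bound site.

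**Figure D3:**
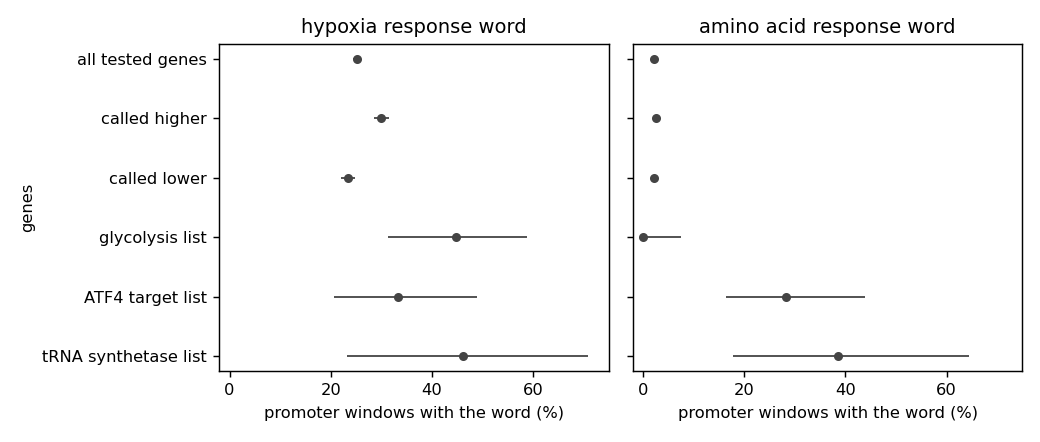
Share of RefSeq promoter windows that hold ACGTG on either strand (left) and TGATGNAA on either strand (right), in percent, for all tested genes, genes called higher or lower in WT hypoxia and 3 gene lists. Bars are 95% Wilson intervals of the windows, and the TGATGNAA share of the ATF4 target list (28.2%) lies above that of all tested genes (2.25%).

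Nuclear genes for the respiratory chain and the mitochondrial ribosome fell by small amounts. Of 76 tested genes for the respiratory chain 53 were called lower (69.7%, against 25.0% of all genes) and 1 higher, and the median log2 change was -0.32. Members of all 5 complexes fell: 25 of 36 genes of complex I, 4 of 4 of complex II, 7 of 9 of complex III, 6 of 11 of complex IV and 11 of 15 of complex V were lower. Ndufa4, a subunit of cytochrome c oxidase, fell from 169.9, 149.5 and 149 CPM to 86.7, 84.3 and 82.5 CPM (log2 change -0.89 ± 0.06, edgeR adjusted p = 6.84e-08). Cyc1, cytochrome c1 of complex III, fell from 416, 343 and 318 CPM to 245, 222 and 209 CPM (log2 change -0.67 ± 0.09, edgeR adjusted p = 3.51e-05). No hypoxia sample of either gene reached a normoxia sample, as was so for 26.5% of all tested genes. The exception was Ndufv3, an accessory subunit of complex I that has a short and a long splice form, which rose from 75.1, 61.5 and 60.6 CPM to 185, 165 and 172 CPM (log2 change 1.41 ± 0.08, edgeR adjusted p = 1.48e-08). Of 77 mitochondrial ribosomal protein genes 51 fell and 2 rose (66.2% and 2.6%, against 25.0% and 26.0% of all genes), with a median of -0.29. Those that rose were Mrpl45 (0.49 ± 0.07) and Mrps6 (0.48 ± 0.09). The largest falls were of Mrpl34 (-0.71 ± 0.13) and Mrpl42 (-0.68 ± 0.07). For the 7 measurable genes encoded in the mitochondrial genome the result rested on normoxia sample 1. With all samples none was called in either direction and the median was -0.06 (0 of 7 also at an unadjusted p under 0.05 in edgeR, against 56.7% of all genes, and 0 of 7 by DESeq2). Without normoxia sample 1, 5 of the 7 were called lower with a median of -0.32, and within lane 5 alone 6 were, with a median of -0.31, whereas lane 4 alone gave 0 calls and -0.14. These genes took 0.892% of the counts of normoxia sample 1, against 1.52% and 1.60% in normoxia samples 2 and 3 and 1.15% to 1.29% in hypoxia. The other 6 of that list had too few counts. Among these mt-Co2 and mt-Co3 had none in any of the 12 samples, but at least 99.9% of their 50-base words also occur in other genes, and how reads that match several genes were counted is not given, so these zeros do not show that the genes were silent.

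**Figure D4:**
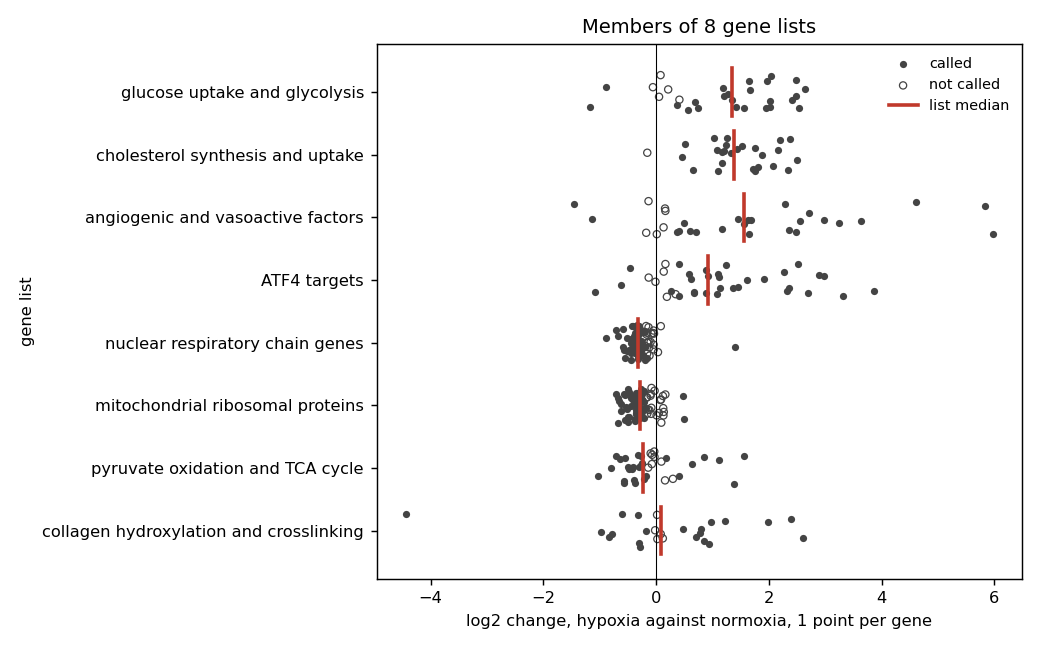
Log2 change in WT cells (x axis) of each tested gene in 8 gene lists, 1 point per gene, filled where the gene was called, with the median of each list as a bar; Stc1, which had no count in normoxia, is not drawn. The respiratory chain and mitochondrial ribosome lists sit just left of 0 with medians of -0.32 and -0.29, while glycolysis and cholesterol synthesis have medians of 1.35 and 1.38.

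The core of the citric acid cycle went the same way: 15 of its 16 genes fell and none rose, by up to -1.03 ± 0.08 (Suclg2). Over the whole list of 36 genes for pyruvate oxidation and the cycle, 20 fell and 7 rose (median -0.23). These are 55.6% and 19.4%, against 25.0% and 26.0% of all genes. The largest rises were of Me2, mitochondrial malic enzyme (1.56 ± 0.06), and Idh1, cytosolic isocitrate dehydrogenase (1.38 ± 0.06). Ogdh, the oxoglutarate dehydrogenase, fell from 338, 306 and 310.2 CPM to 222, 194 and 198 CPM (log2 change -0.64 ± 0.07, edgeR adjusted p = 2.76e-06). Of 30 genes for fatty acid oxidation 12 fell and 6 rose (40.0% and 20%, against 25.0% and 26.0% of all genes). In the mitochondrial spiral 9 of 15 fell and none rose, with Acads (-0.75 ± 0.09) and Hadh (-0.72 ± 0.06) lowest. Among 10 entry genes 3 rose and 1 fell (-0.7 to 1.38), and among 5 peroxisomal and control genes 3 rose, by up to 1.34, and 2 fell. The largest of these falls was of Ppargc1b, a coactivator of mitochondrial genes, from 17.1, 16.3 and 15 CPM to 6.15, 4.40 and 4.99 CPM (log2 change -1.64 ± 0.13, edgeR adjusted p = 2.7e-07). Genes for a few other mitochondrial proteins rose. Of 11 tested genes for mitophagy and mitochondrial remodelling in hypoxia, the 4 that rose were Bnip3, its paralog Bnip3l (2.23 ± 0.15), Higd1a, a regulator of the respiratory complexes, and Lonp1, the matrix protease known to degrade a subunit of cytochrome c oxidase. These are 36.4% of that list, against 26.0% of all genes, and none of its members was called lower. The median log2 change of the list was -0.05. Higd1a went from 21.8, 21.2 and 21.5 CPM to 157, 172 and 183 CPM, and Lonp1 from 300.1, 249 and 252 CPM to 982, 932 and 949.7 CPM (log2 change 1.84 ± 0.08, edgeR adjusted p = 4.95e-10). None of these 4 genes had overlapping samples, which the naming rule had required of Bnip3. The same was so for 28.1% of all tested genes with hypoxia higher. Pink1, Fundc1 and Phb2 had changes between -0.20 and -0.10 and no call. Phb2 was called lower without normoxia sample 3 or hypoxia sample 1 (edgeR adjusted p = 0.00585 and 0.0262) and with the replicate number as a block. Cox4i2 and Ndufa4l2, 2 subunit isoforms known from hypoxic lung, were under the filter.

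Sterol genes rose, with 1 exception among those tested. Of 26 tested genes for cholesterol synthesis and uptake 25 rose (96.2%, against 26.0%) and none fell, 22 of them at least 2-fold, with a median log2 change of 1.38. The rise covered 8 of 8 early genes up to farnesyl pyrophosphate, 3 of 3 at the squalene step and 9 of 9 later ones. Msmo1, a C-4 methyl sterol oxidase that uses oxygen, went from 42.6, 54.3 and 50.2 CPM to 232, 297 and 301 CPM (log2 change 2.50 ± 0.11, edgeR adjusted p = 8.08e-10). Insig1, the protein that holds the SREBP factors back in the endoplasmic reticulum, went from 38.4, 42.1 and 44.0 CPM to 172, 231 and 230.3 CPM (log2 change 2.35 ± 0.11, edgeR adjusted p = 1.38e-09). Lss rose by 2.37 ± 0.09, Cyp51 by 2.15 ± 0.10 and Sqle by 1.89 ± 0.07. The member with no call was Scap (-0.16 ± 0.08), the escort of SREBP, and Srebf2, the factor itself, rose by 0.47 ± 0.06. Scap was called lower without normoxia sample 3 (edgeR adjusted p = 0.0165). The count was 25 again without normoxia sample 1 and without hypoxia sample 1. Fatty acid synthesis and lipid droplet genes rose in 15 of 25 cases and fell in 5 (median 0.29). Hilpda, which blocks lipolysis at the droplet, went from 8.14, 7.50 and 7.61 CPM to 64.6, 56.4 and 58.8 CPM (log2 change 2.95 ± 0.09, edgeR adjusted p = 2.75e-11), Lpin1, a phosphatidate phosphatase, rose by 2.02 ± 0.11, Plin2, a droplet coat protein, by 1.17 ± 0.07, and Fasn, fatty acid synthase, by 0.81 ± 0.07, while the droplet gene Fitm2 (-0.60 ± 0.08) and the lipase gene Lipe (-0.55 ± 0.15) fell.

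Angiogenic and vasoactive factors and their receptors rose in 23 of 31 tested cases (74.2%, against 26.0% of all genes) and fell in 2, with a median of 1.55, which is the same with Stc1 and Adm at their lower bounds. All 5 genes of the VEGF family rose: Vegfa by 2.71 ± 0.10, Pgf by 2.36 ± 0.10, Vegfd by 1.45 ± 0.12, Vegfb by 0.61 ± 0.09 and Vegfc by 0.41 ± 0.12. The decoy receptor gene Flt1 went from 23.2, 23.0 and 26.4 CPM to 122, 112 and 122 CPM (log2 change 2.29 ± 0.08, edgeR adjusted p = 6.93e-11). Vasodilator peptides started from low levels: Apln, apelin, rose from 2.26, 2.15 and 1.16 CPM to 21.1, 23.8 and 23.2 CPM, and Adm, adrenomedullin, had 1, 0 and 0 counts in normoxia and 30, 15 and 37 in hypoxia, at least 9.44-fold higher. Stc1, the secreted hormone stanniocalcin, had no count in normoxia and a mean of 0.68 CPM in hypoxia. Nos2, the inducible nitric oxide synthase, rose from a mean of 0.14 CPM to 8.10 CPM. Serpinf1, which encodes the anti-angiogenic protein PEDF, fell from 24.7, 20.8 and 22.8 CPM to 10.0, 7.04 and 7.79 CPM (log2 change -1.47 ± 0.11, edgeR adjusted p = 1.86e-07), and Fgf2, a fibroblast growth factor, fell by 1.15 on the log2 scale.

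Among the enzymes that modify collagen, members of 1 family moved in opposite directions. P4ha2 and P4ha1, the prolyl 4-hydroxylase catalytic subunits that use oxygen to stabilise the triple helix, rose by 2.61 ± 0.08 and 1.23 ± 0.06, and P4hb, their shared partner, by 0.94 ± 0.05, while the third catalytic gene P4ha3 fell (-0.97 ± 0.14). P4ha2 stood at 141, 123 and 119.6 CPM in normoxia and 835, 720.3 and 790.5 CPM in hypoxia. Plod2, the lysyl hydroxylase of collagen telopeptides, rose by 1.98 ± 0.11, and its relative Plod3 had no call (0.12 ± 0.08, edgeR adjusted p = 0.238). Plod3 was called higher without normoxia sample 1 (edgeR adjusted p = 0.0138). Of the lysyl oxidases that crosslink collagen Loxl2 rose by 2.39 ± 0.07 and Lox by 0.72 ± 0.16, Loxl3 fell (-0.78 ± 0.08), and so did Serpinh1, the collagen chaperone HSP47 (-0.61 ± 0.07). Over the 25 tested genes of collagen hydroxylation and crosslinking 11 rose and 9 fell, against 26.0% and 25.0% of all genes, or 44.0% and 36.0% of the list. Collagen chain genes rose in 12 and fell in 5 of 27 cases (44.4% and 18.5%). Col7a1, the anchoring fibril collagen, rose by 2.0 ± 0.13, Col12a1 by 0.71 ± 0.06 and Col1a1 by 0.35 ± 0.10 with overlapping samples. The beaded-filament chains Col6a1 (-0.90 ± 0.10) and Col6a2 (-0.78 ± 0.10) fell together with Col8a2 (-1.65 ± 0.15). Col1a1 was not called without normoxia sample 3 (edgeR adjusted p = 0.0792). Col1a2 was read at only 5.33 CPM beside 2835 CPM for Col1a1, its partner chain. Of 25 genes for matrix proteases and their inhibitors 11 fell and 6 rose (44.0% and 24.0%). The largest changes were at low levels, Mmp10 rising from 0.093 to 1.19 CPM and Mmp9 falling from 1.88 to 0.2 CPM, and Mmp14, the membrane collagenase, fell from 178, 152 and 160.3 CPM to 103, 84.4 and 80.3 CPM (log2 change -0.88 ± 0.09, edgeR adjusted p = 2.58e-06). Contractile and focal adhesion genes rose in 22 of 36 cases and fell in 3 (61.1% and 8.33%). Cnn1, calponin (2.59 ± 0.28, from 0.49 CPM), and the YAP targets Ccn2 (2.47 ± 0.12) and Ankrd1 (2.03 ± 0.13) were higher. Acta2, smooth muscle actin, was lower (-0.68 ± 0.13).

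Among dioxygenases that use oxygen and iron outside the HIF pathway, 15 of 34 rose and 11 fell (44.1% and 32.4%, against 26.0% and 25.0% of all genes). By family, 12 of 23 JmjC genes rose and 6 fell, both tested TET genes rose, and 5 of 9 AlkB genes fell and 1 rose; the difference between families was not tested. Kdm3a, a histone H3 lysine 9 demethylase, went from 64.2, 68.9 and 70.8 CPM to 291, 282 and 303 CPM (log2 change 2.10 ± 0.06, edgeR adjusted p = 7.58e-12). Jmjd6 rose by 1.91 ± 0.07, Kdm4b by 1.28 ± 0.08 and Tet2 by 1.11 ± 0.11. Alkbh5, an eraser of N6-methyladenosine in RNA, was the AlkB gene that rose (1.17 ± 0.06), and Alkbh8 (-0.61 ± 0.15) and Fto, another such eraser (-0.40 ± 0.07), fell.

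Genes of the integrated stress response rose in 28 of 37 cases (75.7%, against 26.0% of all genes) and fell in 3, with a median of 0.92. Atf4 itself went from 426, 367 and 336 CPM to 744, 814 and 859 CPM (log2 change 1.10 ± 0.08, edgeR adjusted p = 1.65e-07). Among its partners and targets Atf3 went from 7.87, 7.85 and 7.10 CPM to 100.5, 102 and 129.7 CPM (log2 change 3.87 ± 0.12, edgeR adjusted p = 1.92e-11), Trib3, a pseudokinase that restrains the response, rose by 2.90 ± 0.12, and Ddit3, the factor CHOP, by 2.26 ± 0.10. Ppp1r15a, which reverses the block on translation, rose by 2.51 ± 0.11, and Ddit4, an inhibitor of mTORC1, by 2.35 ± 0.11. Gdf15, a secreted stress cytokine, rose by 3.31 ± 0.47 from 0.33 CPM. Among amino acid genes the cystine transporter gene Slc7a11 rose by 1.46 ± 0.20 and Psat1, of serine synthesis, by 0.89 ± 0.07, Asns, asparagine synthetase, by 0.41 ± 0.08, while Cbs (-1.08 ± 0.18) and the glutamine transporter gene Slc1a5 (-0.62 ± 0.06) fell. Of 20 cytosolic tRNA synthetases 10 rose, none of them 2-fold, and 3 fell, with Cars (0.68 ± 0.06) and Kars (-0.39 ± 0.06) at the ends. Of 29 chaperone and unfolded protein response genes 8 rose and 9 fell (27.6% and 31%, against 26.0% and 25.0% of all genes). Herpud1, of protein degradation at the endoplasmic reticulum, rose by 1.32 ± 0.08, Hspa5, the chaperone BiP, changed by 0.08 ± 0.05 without a call (edgeR adjusted p = 0.216), and Pdia4, a disulfide isomerase, fell from 411, 386 and 422 CPM to 274, 241 and 248 CPM (log2 change -0.68 ± 0.06, edgeR adjusted p = 7.13e-07). Ero1l, the oxidase that passes electrons to oxygen during disulfide formation, rose from 31.9, 42.3 and 40.6 CPM to 447, 457 and 494 CPM (log2 change 3.60 ± 0.10, edgeR adjusted p = 7.86e-12).

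The composite word TGATGNAA, known as the amino acid response element bound by ATF4, was searched on both strands in the same promoter windows after these results were known. It is shown for 3 members that rose, in 100 of the 250 bases before the start, with matches in capitals.
Chac1: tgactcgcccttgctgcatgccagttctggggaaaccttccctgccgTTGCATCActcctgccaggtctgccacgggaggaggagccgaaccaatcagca
Atf3: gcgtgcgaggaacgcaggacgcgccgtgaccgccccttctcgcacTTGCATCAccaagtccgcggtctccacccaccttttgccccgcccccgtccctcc
Slc7a11: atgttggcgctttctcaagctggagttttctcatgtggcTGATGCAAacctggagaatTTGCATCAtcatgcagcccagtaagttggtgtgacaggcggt
These stretches lie at chr2:119351002-119351101 (Chac1, plus strand), chr1:191183389-191183488 (Atf3, minus strand) and chr3:50443619-50443718 (Slc7a11, minus strand). They span bases 240 to 141 before the start for Chac1, 155 to 56 for Atf3 and 105 to 6 for Slc7a11. The word was in 11 of 39 windows of the ATF4 target list (28.2%) and 5 of 13 of the tRNA synthetase list (38.5%), against 2.25% of windows of all tested genes. Among genes at least 2-fold higher it was in 4.26% of windows, and among genes at least 2-fold lower in 2.87%. The ATF4 target list rests on published targets, for which such words are partly how they were recognised.

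Heat shock and metallothionein genes rose in 9 and fell in 9 of 21 cases (42.9% each, against 26.0% and 25.0% of all genes), with Mt1 rising from 77.6, 56.9 and 61.3 CPM to 305, 290.1 and 282 CPM and Hsph1, a cytosolic chaperone, falling from 434, 466 and 431 CPM to 223, 179.6 and 197 CPM (log2 change -1.15 ± 0.08, edgeR adjusted p = 4.81e-08). All 3 of the mitochondrial chaperone genes that fell, Hspd1, Hspe1 and Trap1, lay between -0.74 and -0.51, while Hspa9 rose by 0.33 ± 0.06. Of 39 NRF2, glutathione and thioredoxin genes 13 rose and 15 fell (33.3% and 38.5%). Of its 12 thioredoxin and peroxiredoxin genes 7 fell, by most Prdx3 (-1.05 ± 0.06) and Txn2 (-0.78 ± 0.08), and 2 rose, of which Txnip, which binds thioredoxin, went from 13.4, 12 and 16.6 CPM to 52.4, 64.4 and 80.1 CPM (log2 change 2.23 ± 0.16, edgeR adjusted p = 1.18e-07). Iron genes rose in 8 and fell in 5 of 24 cases (33.3% and 20.8%, near the shares over all genes): Tfrc, the transferrin receptor, rose by 1.78 ± 0.17 and Hmox1, heme oxygenase, by 1.55 ± 0.08, Iscu, a scaffold of iron-sulfur clusters, fell by 0.62 on the log2 scale, and Fth1, the ferritin heavy chain, fell from 1417, 1253 and 1247 CPM to 903, 865 and 821 CPM (log2 change -0.60 ± 0.06, edgeR adjusted p = 2.29e-06).

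**Figure D5:**
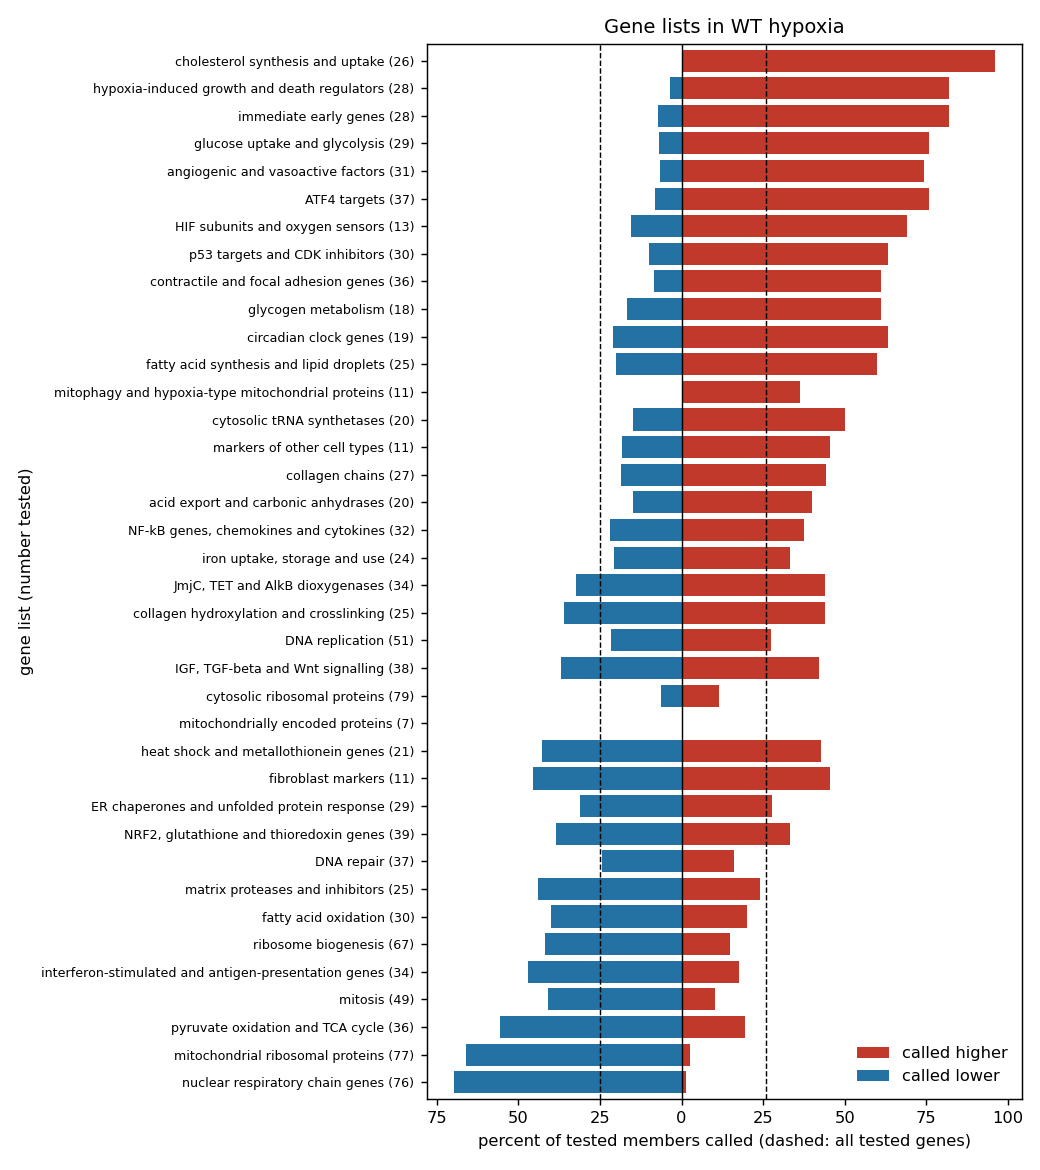
Share of tested members called higher (right) and lower (left) in WT hypoxia, in percent, for 38 gene lists, with the number tested in brackets. Dashed lines mark the share over all tested genes, 26.0% higher and 25.0% lower. Cholesterol synthesis (96.2%), immediate early genes and hypoxia-induced growth and death regulators (82.1% each) extend farthest right, and the respiratory chain and mitochondrial ribosome farthest left. The hypoxia-induced list was made of genes known to rise in hypoxia, and all lists were chosen with earlier results of these data known.

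Of 30 p53 targets and CDK inhibitors 19 rose and 3 fell (63.3% and 10.0%, against 26.0% and 25.0% of all genes, median 0.54). Cdkn1a, the CDK inhibitor p21, went from 20, 16.8 and 17.1 CPM to 202, 199 and 246 CPM (log2 change 3.59 ± 0.10, edgeR adjusted p = 1.27e-11), Plk2, a stress kinase, rose by 2.73 ± 0.14 and Mdm2, the ligase of p53, by 1.49 ± 0.11, and Sesn1 fell (-0.51 ± 0.07). Among 28 growth and death regulators known to be induced by hypoxia 23 rose and 1 fell (82.1% and 3.57%). The list was made of genes known to rise in hypoxia, so this share was largely set by that choice. The other lists were also chosen with earlier results of these data known. Rora, a nuclear receptor of the clock, rose by 4.86 ± 0.39 from 0.16 CPM and Mxi1, an antagonist of MYC, by 2.02 ± 0.09. Myc itself rose from 65.8, 55.6 and 51.2 CPM to 151, 175 and 208 CPM (log2 change 1.63 ± 0.11, edgeR adjusted p = 7.61e-08). DNA replication genes split into 14 higher and 11 lower of 51 (27.5% and 21.6%, near the shares over all genes), none of them 2-fold changed, with Ccne2, cyclin E2, at 1.0 ± 0.24 and Pold2, a polymerase subunit, at -0.72 ± 0.10, and 7 of them were higher with library size alone as the scale or without normoxia sample 3. Mitosis genes fell in 20 and rose in 5 of 49 cases (40.8% and 10.2%, median -0.16). Plk1, a mitotic kinase, fell from 176, 151 and 143 CPM to 108, 103 and 90.3 CPM (log2 change -0.64 ± 0.08, edgeR adjusted p = 2.61e-05). DNA repair genes rose in 6 and fell in 9 of 37 cases (16.2% and 24.3%), with Blm at 0.46 ± 0.10 and Xrcc6 at -0.49 ± 0.06. Ribosome biogenesis genes fell in 28 and rose in 10 of 67 (41.8% and 14.9%), with Rrp9 at -0.93 ± 0.12. Cytosolic ribosomal protein genes rose in 9 and fell in 5 of 79 (11.4% and 6.33%, under the shares over all genes). The ribosomal count of 9 became 18 without normoxia sample 1 and 3 without normoxia sample 3, so no direction is given for that list.

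Of 19 clock genes 12 rose and 4 fell (63.2% and 21.1%, against 26.0% and 25.0% of all genes, median 0.92). Bhlhe40, a repressor that links hypoxia to the clock, went from 48.7, 46.3 and 48.5 CPM to 374, 389.5 and 407 CPM (log2 change 3.03 ± 0.06, edgeR adjusted p = 7.89e-13), and Ciart from 3.58, 3.07 and 2.64 CPM to 71.2, 76.4 and 80.5 CPM. Neither had overlapping samples, which the naming rule had required of Ciart. Over all tested genes 28.1% had no overlap with hypoxia higher. Arntl, which encodes BMAL1, rose by 1.08 ± 0.07 and Cry1 by 1.35 ± 0.08, while Per3 (-0.65 ± 0.08) and Nr1d2 (-0.44 ± 0.15) fell. Nr1d2 was not called without hypoxia sample 1, normoxia sample 2 or normoxia sample 3 (edgeR adjusted p = 0.0705, 0.065 and 0.0722). Of 28 immediate early genes 23 rose and 2 fell (82.1% and 7.14%), with all 7 AP-1 genes higher; Ier3 went from 40.9, 35.8 and 36.6 CPM to 342, 306 and 355 CPM (log2 change 3.15 ± 0.08, edgeR adjusted p = 2.92e-12), and Egr1 was 1 of the 2 that fell (-0.80 ± 0.18). Dusp1, a phosphatase of MAP kinases, rose by 2.99 ± 0.12, and Spry4 fell (-1.11 ± 0.14). Interferon-stimulated and antigen-presentation genes fell in 16 and rose in 6 of 34 cases (47.1% and 17.6%, median -0.22), and Tap2 (-1.47 ± 0.12) and Bst2 (-1.35 ± 0.15) fell while H2-K1 rose from 31.2, 24.6 and 25.9 CPM to 151, 150.2 and 163 CPM (log2 change 2.51 ± 0.09, edgeR adjusted p = 6.95e-11). NF-kB genes, chemokines and cytokines rose in 12 and fell in 7 of 32 (37.5% and 21.9%); Ptgs2, cyclooxygenase 2, rose by 2.55 ± 0.15 and Tnfaip3, the feedback inhibitor A20, by 1.89 ± 0.07, and Vcam1, an adhesion molecule, fell from 160.1, 172 and 199 CPM to 69.1, 63.4 and 64.6 CPM (log2 change -1.43 ± 0.08, edgeR adjusted p = 9.21e-09). IGF, TGF-beta and Wnt signalling genes rose in 16 and fell in 14 of 38 (42.1% and 36.8%), with Grem1, a BMP antagonist, at 1.87 ± 0.15, Igfbp5 at -1.57 ± 0.15 and Tgfb3 falling from 243, 233 and 240.1 CPM to 122, 85.1 and 74.4 CPM.

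The mesothelial genes mentioned above did not move as one, and they are given because the label says fibroblasts. Upk3b fell from 1087, 956 and 1028 CPM to 568, 491 and 473 CPM (log2 change -1.0 ± 0.08, edgeR adjusted p = 2.41e-07), as did Wt1 (-0.47 ± 0.06) and Gpm6a (-0.69 ± 0.21), while Msln rose by 0.83 ± 0.09. Fibroblast markers rose in 5 and fell in 5 of 11 cases (45.5% each, against 26.0% and 25.0% of all genes), and 3 rose with library size alone as the scale or with only the 6 WT samples fitted: Vim and Prrx1 rose by 1.20 ± 0.06 and 0.95 ± 0.15, and Pdgfra, Pdgfrb and Dcn fell (-0.54 ± 0.10, -1.03 ± 0.14 and -0.83 ± 0.10). Markers of other cell types rose in 5 and fell in 2 of 11, the largest rises being of Tnnt2 (1.05 to 8.26 CPM) and Fabp4 (0.43 to 3.09 CPM), and together they took between 0.0187% and 0.0226% of the counts of a sample. Whether cell makeup had a part in the changes above was not tested.

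The response of WT cells was set against that of the libraries labelled TAZKo by an interaction contrast, in which 350 of 14408 genes (2.43%) passed. The transcript of Taz was not lower there (34.6 CPM in WT and 42.2 CPM in the libraries labelled TAZKo, means of 3 normoxia samples), so the contrast is between labels. Of these 350 genes 278 moved the same way under both labels and 289 changed by more in WT. Sterol genes passed in 16 of 26 cases and ATF4 targets in 16 of 37, each with the larger change in WT, and angiogenic factors passed in 11 of 31 and immediate early genes in 11 of 28. Atf3 changed by 3.87 ± 0.12 on the log2 scale in WT and by 2.09 in the libraries labelled TAZKo (edgeR adjusted p = 0.00016 for the difference). Vegfa changed by 2.71 ± 0.10 and 1.44 (edgeR adjusted p = 0.000241), and Msmo1 by 2.50 ± 0.11 and 1.41 (edgeR adjusted p = 0.00214). Bnip3 was among the exceptions, with 3.87 ± 0.08 in WT and 4.32 under the other label (edgeR adjusted p = 0.045), a call that was lost without 5 of the 6 libraries left out in turn. In glycolysis 1 of 29 genes passed, Aldoa, and in the respiratory chain 0 of 76, which does not show that those responses were equal. Egln3 changed by 3.73 ± 0.07 and 3.62 with an edgeR adjusted p of 0.598 for the difference.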

How the data were processed

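RNA was measured by sequencing of libraries from a TruSeq RNA v2 kit, which does not mark strand, per the labels' protocols, so antisense and overlapping genes cannot be told apart. Among named genes Grin1, Car14, Txnip, Ccne2, Pgm1, Plod3, Loxl3, Lipe, Ccn2, Ankrd37, Scap and Tap2 share at least 10% of their exon bases with a gene on the other strand. The authors deposited raw read counts per gene for each sample. The submitters' processing notes name the build mm10, and the aligner, counting tool and annotation are not given in the sources used here. Symbols were matched for 48349 of 48709 gene IDs (GENCODE M21).

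The counts were fitted with edgeR 4.0.16 in R 4.3.3: TMM scaling, its filter on low counts over the 4 groups (14408 genes), all 12 samples sharing 1 estimate of spread, the quasi-likelihood test of WT hypoxia against WT normoxia, and Benjamini-Hochberg adjustment over all tested genes with a threshold of 0.05. The standard error is the log2 change divided by the root of the F statistic. Total counts per WT sample were 21039451 to 28586600, and intervals and floors cover counting error only. Deviations of WT samples from their group means correlated at 0.368, 0.204 and 0.152 for the same number and at -0.28 to 0.18 for different numbers. Normoxia sample 3 correlated at 0.18 with hypoxia sample 2 and at 0.152 with hypoxia sample 3. The values therefore set sample 1 apart but do not pair samples 2 and 3. A block that assumes pairing by number was tried as an alternative. Alternatives also covered scaling, filters, lanes, DESeq2 1.42.0 and leaving out samples. The code was tested on simulated data.

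Of the gene lists' entries 95 were under the filter or had no count; 1199 different genes were tested. Named genes were the 12 largest rises and falls with non-overlapping samples and at least 10 CPM in either condition, the 6 largest gains and losses in CPM, genes off in 1 condition, and list members, largest changes first; some of these genes are not reported here. The members and lists were chosen with earlier results of these data known. Shares of 50-base words that occur in other genes came from GENCODE M21 transcripts, and promoter windows from RefSeq (GRCm38.p6), matched for 10428 of 14360 genes. Further named genes with shared words include Hspd1 (44.8%), Bnip3l (23.4%) and Bnip3 (21.9%), so their absolute levels are uncertain too.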

Additional observations from a re-analysis of the deposited data

Results flagged for a closer look

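Of 226 genes named with a test, 47 had a response that differed between WT and the libraries labelled TAZKo in the interaction contrast of edgeR at an adjusted p under 0.05, and in 41 of them the change in WT was the larger in size. Over all tested genes 350 of 14408 (2.43%) differed, and 289 of these 350 changed by more in WT. The named genes were picked largely by the size of their change in WT, so neither count among them is a result about the labels. The value after each gene is the log2 change in WT minus that in the libraries labelled TAZKo. The ATF4 targets among the 47 were Atf3 (1.78), Atf4 (0.72), Chac1 (1.68), Ddit3 (0.85), Ppp1r15a (1.04), Slc7a11 (1.42) and Trib3 (1.79). In sterol synthesis the differences were for Cyp51 (1.02), Insig1 (0.67), Lss (0.83), Msmo1 (1.09) and Sqle (0.60). Angiogenic and vasoactive factors comprised Ccn2 (1.75), Flt1 (0.74), Hmox1 (0.46), Pgf (1.02), Ptgs2 (1.49) and Vegfa (1.27). Among immediate early genes they were for Dusp1 (1.31), Egr1 (1.15) and Ier3 (0.82). Of p53 targets and CDK inhibitors there were Cdkn1a (1.17) and Plk2 (1.31). Other genes with a positive difference were 2610528A11Rik (2.10), Ankrd1 (1.16), Ciart (1.27), Ero1l (0.67), Gbe1 (0.58), H2-K1 (0.74), Herpud1 (0.96), Hilpda (0.59), Idh1 (0.52), Lonp1 (0.59), Per3 (0.52), Siah2 (0.71), Sprr1a (1.68), Tnfaip3 (0.66) and Txnip (1.14). Those with a negative difference were Aldoa (-0.49), Bnip3 (-0.45), Fmnl1 (-1.14), P4ha1 (-0.38), Parvb (-1.26), Pgm1 (-0.33), Tgm2 (-1.36), Ush1g (-3.08) and Wnk4 (-0.75). A negative difference of a gene that fell, such as Tgm2 or Parvb, is a larger fall in WT, and of a gene that rose, such as Bnip3 or Pgm1, a smaller rise. Egr1 and Per3 fell less in WT. Ush1g had 0, 1 and 1 counts in WT hypoxia, so its fitted difference depends on the prior count and is no bound; its fall in WT was at least 8.53-fold, and the call was lost without any 1 of the hypoxia samples. Leaving out each WT library in turn, 31 of the 47 kept the call and 16 lost it without at least 1 library. Without both WT samples numbered 1, a setting chosen after seeing the data, 83 of the named genes passed.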

How the results depend on the processing

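For 38 gene lists counts were taken in the direction of most of their calls, under every alternative other than the single lanes. In 32 of them the count stayed within 1.5 times. The mitochondrially encoded list had no call in either direction, was counted as higher and is among the 32, although its lower calls moved. Of the mitochondrially encoded genes, 0 of 7 lower became 5 without normoxia sample 1. With normoxia samples 1 and 2 and hypoxia sample 1 alone (lane 4), 1661 genes were called, 986 higher and 675 lower, of which 642 and 259 were at least 2-fold, with 1 hypoxia sample assumed to vary like the other groups. Requiring a mean of at least 5 CPM left 499 genes at least 2-fold higher and 183 lower, and with no filter 666 were at least 2-fold lower. At a mean of at least 5 CPM the glycogen list had 7 higher genes and the markers of other cell types 3. The count of higher cytosolic ribosomal protein genes was 3 with library size alone, 4 with upper quartile scaling, 5 with no filter, 5 with only the 6 WT samples, 19 without both WT samples numbered 1, 22 without all 4 samples numbered 1, and 3 to 18 leaving out 1 sample in turn. Higher DNA replication genes numbered 7 with library size alone, 9 with upper quartile scaling, 6 with no filter, 9 with only the 6 WT samples and 7 to 15 leaving out 1 sample. With library size alone 20 fatty acid oxidation genes fell and 3 fibroblast markers rose, also 3 with only the 6 WT samples. Of the genes named, 83 and 91 had a different response between labels without both WT samples numbered 1 and without all 4 samples numbered 1, against 47; these 2 settings were chosen after seeing the data. The cause was not tested. Hspa5 was at -0.026 with library size alone, and leaving out 1 sample put Pfkm between -0.16 and 0.022 and Krt18 between -0.16 and 0.034, none of them called. The replicate block, with numbers taken to pair the samples, gave 4145 higher and 3887 lower genes and moved no count by over 1.5 times; Phb2 (-0.19) and Slc16a1 (0.22) then passed the threshold. The share of promoter windows with the hypoxia words, 63.3%, 61.3% and 61.3% for genes called higher, called lower and all, was 57.2%, 54.5% and 55.3% in the 250 bases before the start and 30.0%, 23.4% and 25.2% for ACGTG alone. It was 54.3% and 50.9% for genes changed at least 2-fold, higher and lower. Other words gave 11.6%, 9.77% and 9.83% (CACGTG), 1.54%, 0.819% and 1.13% (TCACNCCAC) and 2.62%, 2.12% and 2.25% (TGATGNAA). Depth limits low genes: 3 counts were worth 0.109 to 0.15 CPM. Of 215 named genes called, 208 kept call and direction under every alternative other than lane 4 alone, which lost 47 calls, and none changed direction.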
